A study of Mus musculus with 38 samples.

Results

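The 9 genes described here, Itga3, Itga6, Itgb4, Itgb1, Col17a1, Lama3, Lamb3, Dst and Plec, encode the machinery by which basal epidermal cells hold on to the basement membrane. They were chosen by name from 21938 protein-coding genes, and each was followed through its gene body plus 20 kb on both sides (mm10, gene models of GENCODE M21). Every interval of a deposited list that overlapped such a window by at least 1 bp was counted. The rule that names them uses no measured value, but they were picked with earlier results of these data known.

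In the resting epidermis, integrin α6β4 (Itga6 and Itgb4) sits in the hemidesmosome, a junction that rivets the basal cell to the membrane beneath it. Inside the cell, plectin (Plec) and the epithelial form of dystonin (Dst, known as BP230) tie the junction to keratin filaments. Outside it, collagen XVII (Col17a1, known as BP180) and the integrin bind laminin-332, of which Lama3 and Lamb3 encode the α and β chains. Integrin α3β1 (Itga3 and Itgb1) binds the same laminin and links to actin instead. H3K4me1 marks enhancers that are primed or active, and H3K27ac marks active enhancers and promoters.

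The measurements came from MINT-ChIP, in which chromatin of several samples is barcoded and then pooled for a single immunoprecipitation with each antibody. Epidermal stem cells (EpdSCs) came from back skin of male K14rtTA; TRE-myc-Sox9 mice, in which doxycycline (DOX) switches on MYC-tagged SOX9, a transcription factor of hair follicle stem cells, wherever the Krt14 promoter drives rtTA. Of 38 libraries in 16 groups, 12 were of H3K4me1, 12 of H3K27ac and 12 of total H3 (not analysed here) from skin, and 2 were of H3K4me1 from culture. D0 was without DOX, and W1, W2, W6 and W12 were 1, 2, 6 and 12 weeks of DOX, which the labels give for all skin samples as begun by injection at postnatal day 21. The labels give all skin samples the same genotype and gate, so that no uninduced sample of a later age was present and weeks of DOX cannot be told apart from age. According to the study, W12 cells came from newborn skin grafted onto Nude hosts and given DOX once the grafts had healed, so that W12 also differs from the rest by the graft. The W12 libraries carried replicate 1 of W2 as well, told apart by barcode. Cultured keratinocytes carried SOX9 variants under the same DOX control, and their 4 lists were named for cells without DOX and for WT SOX9, SOX9 without the DNA-binding HMG domain and SOX9 without the transactivation (TA) domain.

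Each of the 14 lists pooled the replicates of its condition. No spread between replicates could be had and no p-value was computed, so that every comparison below is a description of pooled lists. A difference in covered bases or fold of at least 1.5 times is called higher or lower, and exact 95% Clopper-Pearson intervals of shares cover counting error only. The H3K27ac lists held 29081 to 33985 peaks over 23.1 to 32.1 Mb. Their depth differed: the genome-wide background pileup, recovered from the fold enrichments, was 0.501 for the D0 list and 0.299, 0.425, 0.677 and 0.412 for the 4 later lists in order of time. Where 5 values follow each other below without a label, they stand in this order, from D0 to W12. A fold is therefore lower in a shallower list for the same enrichment, and pileup divided by this background is given beside it. The gate took cells high in CD49f, which is the Itga6 protein, so that Itga6 was also part of how the cells were sorted. Start sites of 4 basal keratinocyte genes carried H3K27ac in 4 of 4 cases up to W6 and in 3 of 4 in the W12 list, whereas those of 3 immune, 3 fibroblast and 2 muscle genes carried it in none of the 5 lists. Other markers did carry it: of 4 suprabasal genes Krt10 in all 5 lists and Ivl at W2, of 3 melanocyte genes Dct at W1 (fold of 3.85), and of 2 endothelial genes Pecam1 (CD31, against which the cells were sorted) at W6 (4.77) and W12 (14.9), while the start of Cdh5 had none. The part of such cells in the results below was not tested. Fewer cells of a kind and less mark per cell cannot be told apart in such pooled lists.

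All 9 genes were more widely marked than the median gene in all 14 lists. H3K27ac covered a median of 8.52% of their windows at D0 and 5.34%, 7.07%, 5.66% and 3.98% in the later lists, against 1.29%, 1.22%, 1.37%, 1.58% and 0.916% for all genes. H3K4me1 covered a median of 45.0% at D0 and 34.8%, 37.0%, 38.6% and 50.6% in the later lists, against 14.7% to 18.3% for all genes. The group thus entered induction above the median gene and stayed above it throughout. At D0 its H3K27ac coverage ranged from that of Lamb3, above 61.1% of genes, to that of Col17a1, above 99.8%.

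Covered bases of H3K27ac were lower than at D0 for 2 of 9 genes at W1 (Col17a1 and Itga6) and higher for none, where 19.5% of all genes with at least 1000 covered bases in either list were called lower and 19.1% higher. At W2 only Lama3 was lower and only Itgb1 was higher, where 15.8% of genes were lower and 24.5% higher. At W6 4 of the 9 were lower, namely Col17a1, Itga6, Itgb1 and Lama3, while 12% of all genes were lower and 29.2% were higher. None of the 9 was higher at W6. At W12 Col17a1, Itga3 and Plec were lower, a share of the 9 below the 45.6% of all genes, and none was higher (13.5% of all genes). Over the gene bodies alone, without the flanks, 5 of the 9 were lower at W6 and 6 at W12. The share of all genes was not computed for gene bodies, so that these counts have no background. With the flanks, W6 was the list in which the group stood furthest from the other genes: the median log2 ratio to D0 was -0.29 for the 9 and 0.22 for all genes tested. W6 was also the deepest of the 5 lists.

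For H3K4me1 no such difference was seen. None of the 9 genes was lower or higher by 1.5 times in any week, where 21.3%, 21.9%, 21.5% and 23.4% of all genes were lower and 3.46%, 10.5%, 8.79% and 9.18% were higher. Coverage was slightly below D0 in 9, 8, 9 and 8 of the 9 in the 4 later lists, as it was in 76.5%, 63.4%, 66.9% and 68.5% of all genes. Of the 100 D0 domains at the 9 genes, 34, 28, 28 and 22 were absent later, and in percent this compares with 27.8%, 32.4%, 26.6% and 31.2% of all domains. New domains were 2 of 88, 13 of 97, 12 of 95 and 10 of 87, against 5.96%, 20%, 17.1% and 15.6% of all.

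**Figure D1:**
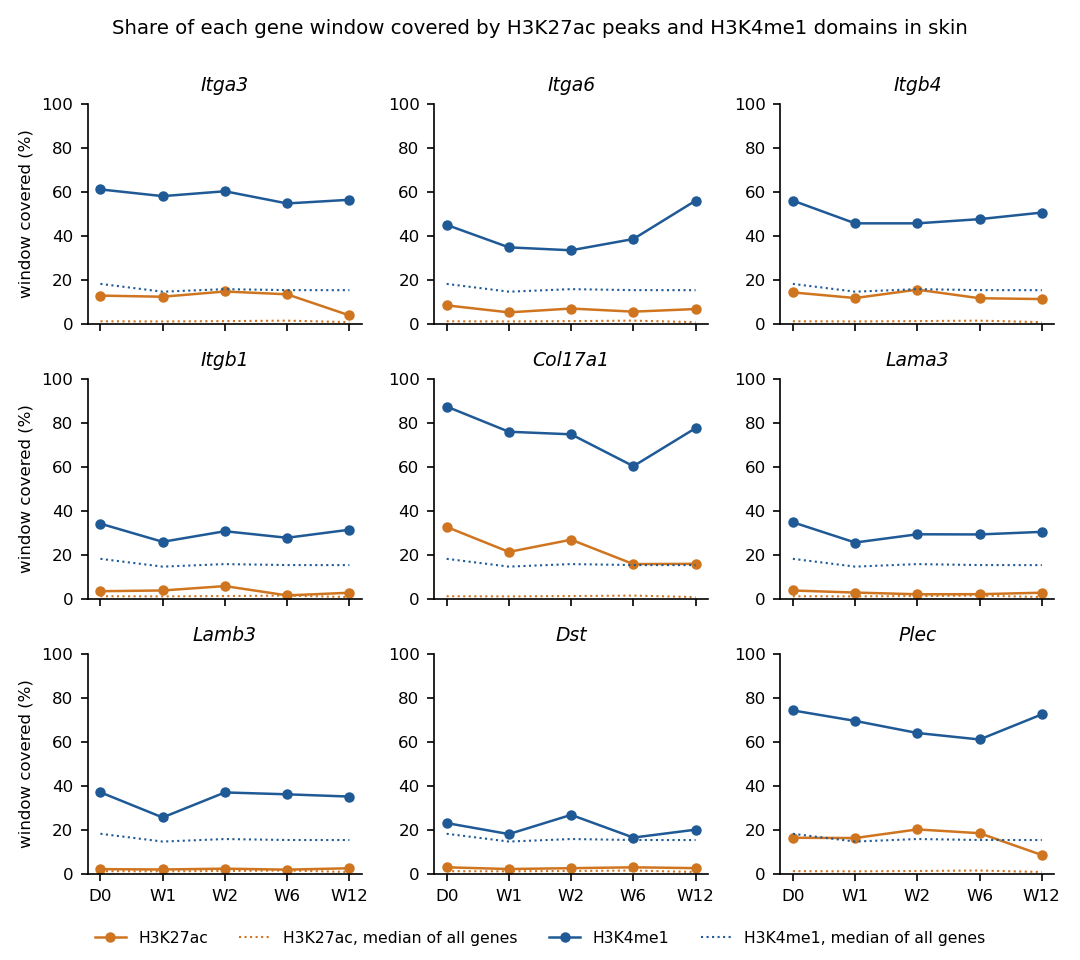
Share of each gene window (gene body plus 20 kb on both sides, in percent) covered by H3K27ac peaks (orange) and H3K4me1 domains (blue) in the 5 skin lists, 1 panel per gene, with the median of all genes dotted. Points are single pooled lists with no error; all 9 genes lie above the dotted lines, and the orange line of Col17a1 runs from 32.7% at D0 to 15.98% at W12 while its blue line stays between 60.3% and 87.3%.

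Peak by peak, 38 of the 95 D0 peaks at the 9 genes were absent at W1 (40% [30.1 to 50.6], all peaks 37.4%), 32 at W2 (33.7% [24.3 to 44.1], all 38.6%), 46 at W6 (48.4% [38.0 to 58.9], all 37.8%) and 50 at W12 (52.6% [42.1 to 63.0], all 53.7%). The W6 share stood furthest above the background, and the lower end of its interval was at the background. Without Col17a1, which held 24 of the 95 peaks, the W6 share was 42.3%, and the W1 share was 33.8% and so below that of all peaks. Peaks that appeared after D0 made up 29.5%, 27.8%, 34.1% and 45.3% of the later lists at the 9 genes, against 41.3%, 40.1%, 39.8% and 56.2% of all peaks. The losses were mostly of weak peaks. Of the 45 D0 peaks above the median rank of the list, 6.67% were missing from the full W1 list, 4.44% from W2, 13.3% from W6 and 22.2% from W12, against 14.3%, 14.7%, 13.6% and 29.9% of all such peaks.

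**Figure D2:**
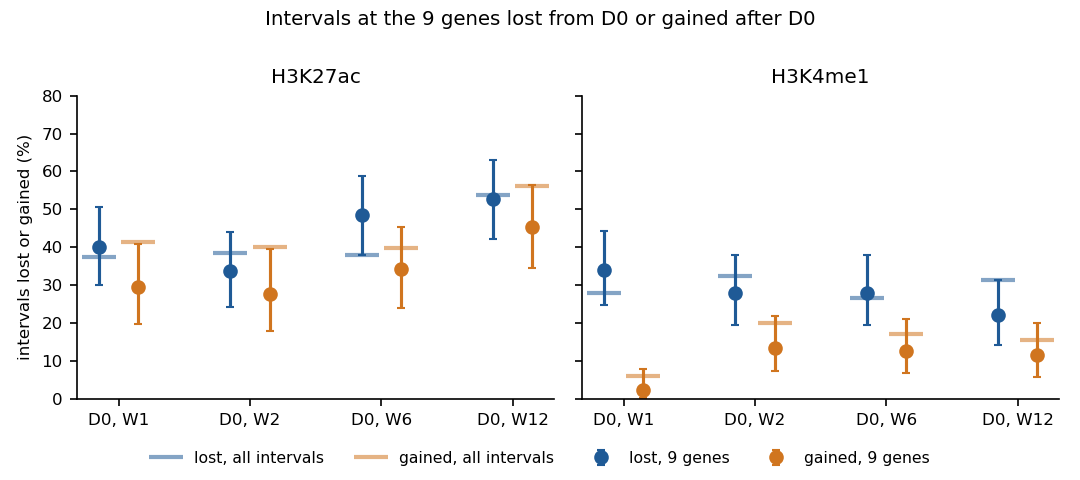
Percent of intervals at the 9 genes that were lost from D0 (blue points) or gained after D0 (orange points) for H3K27ac on the left and H3K4me1 on the right, with exact 95% intervals that cover counting error only, and the share over all intervals as horizontal bars. Gained H3K27ac shares of the 9 genes lie under their bars at each week, and the lost share at W6 (48.4%) stands above its bar (37.8%) by about the length of its lower error bar.

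Joining overlapping H3K27ac peaks of the 5 lists gave 144 elements in the 9 windows. Of these, 29 were present in all 5 lists, 26 were present at D0 and absent from W2, W6 and W12 (lost for good), 5 were absent at D0 and present in those 3 (gained and kept), and 73 were seen in 1 list only. In percent these were 20.1%, 18.1%, 3.47% and 50.7% of the elements at the 9 genes, against 15.6%, 11.4%, 2.54% and 55.1% of the 65294 elements of the genome. Of the 26 lost, 11 lay at Col17a1 alone, where they were 55% of the elements. At each of the other genes the share lost for good was between 0% and 20%. Most elements were away from promoters: 115 of all 144 were over 1000 bp from any start site. Of the 26 lost, 24 were, which is near that share, against 14 of the 29 constant ones. All 26 lost elements lay in an H3K4me1 domain at D0, and 25, 23, 22 and 25 of them did so in the later lists. This was near the share of all 144 elements, of which 133, 127, 123, 123 and 129 lay in H3K4me1. All 14 elements that first gained H3K27ac at W2 lay in H3K4me1 at D0, and of the 27 first seen at W12, 17 did.

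Start sites were read from the strongest peak within 500 bp. By fold, 8 of the 9 genes were highest at D0, the exception being Itga3, and by pileup over background 6 were, since Dst and Plec were then highest at W2. Of the 6328 genes with a start-site peak in all 5 lists, 53.4% were highest at D0 by fold and 53.7% by pileup over background. By fold, 7 of 9 were lower by 1.5 times at W1, 5 at both W2 and W6 and 8 at W12, against 59%, 38.5%, 15.9% and 65.3% of all genes with a start-site peak in both lists. By pileup over background, which takes the unequal depth into account, the numbers were 4, 5, 7 and 7 of 9, against 28.4%, 30.6%, 31.1% and 58.2%. Col17a1, Itgb1, Itgb4 and Lama3 were lower at all 4 weeks on both scales. These were the 4 genes with the highest start-site values at D0.

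**Figure D3:**
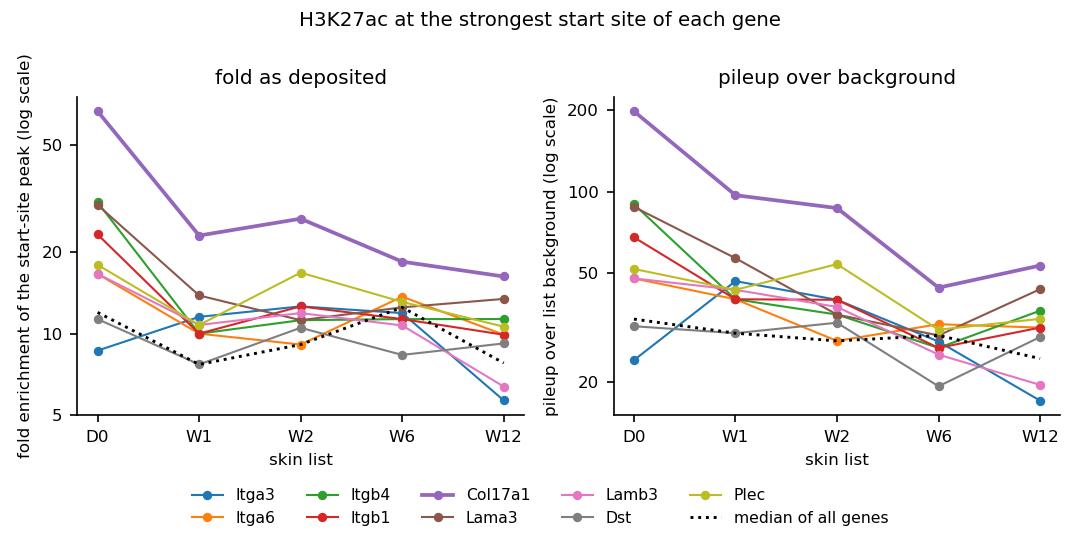
Strength of the strongest H3K27ac peak within 500 bp of a start site of each of the 9 genes in the 5 skin lists, as the deposited fold enrichment (left, log scale) and as pileup over the background of the list (right, log scale), with the median of all genes that have such a peak dotted. Col17a1 (thick line) is the highest of the 9 in every list and goes from 66.6 to 16.3 in fold, and at W6 the lines of the 9 genes close in on the dotted median.

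Of the laminin-binding integrins, Itgb4, the β chain found in hemidesmosomes, differed most from D0 at its start. The fold there was 30.7 at D0 and 10.01, 11.2, 11.3 and 11.3 later, and pileup over background was 89.9, 40.2, 35.3, 26.6 and 36.5. All 4 later lists were alike in fold and below D0. The ratio of D0 to W1 was 2.24 on the depth-scaled measure, and at W6 0.547% of all genes had a smaller ratio to D0. A start site inside the gene (115977786 on chromosome 11) had no H3K27ac peak within 500 bp in any of the 5 lists, though H3K4me1 lay over it in all 5. The Itgb4 window also held the start of H3f3b, a histone gene, with folds of 27.99, 17.7, 23.9, 28.6 and 13.5, and a flanking element 4425 bp from the nearest start, which had a fold of 15.6 at W12 and was then the strongest of the window.

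Itga6, its α partner, differed less at its start. Its coverage with the flanks was called lower at W1 and W6, whereas that of Itgb4 was called in no week. Over the gene bodies alone this was reversed: Itga6 was called in no week, and Itgb4 was lower at W6 (7.47% at D0 and 4.68% at W6). H3K27ac covered 8.52%, 5.34%, 7.07%, 5.66% and 6.85% of its window. The start-site fold was 16.7, 10.01, 9.12, 13.7 and 9.92. A pair of intronic elements 12997 and 17989 bp past the start was nearly as strong at D0 and was present in all 5 lists. The first had folds of 14.7, 5.39, 15.4, 7.16 and 7.08, and the second 15.3, 10.01, 11.2, 8.95 and 9.21. Apart from the first at W2, these elements were below D0 in every later list. With them, 5 of the 13 elements at Itga6 were constant, and 1 was lost for good. H3K4me1 over the window was 45.0%, 34.8%, 33.5%, 38.6% and 56.0%, so that W12 alone was above D0.

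Itgb1, the β chain that pairs with α3 and with many other α chains, had few peaks, with 4, 6, 4, 1 and 3 in the 5 lists. Its start-site fold was 23.3, 10.01, 12.6, 11.3 and 9.92, and pileup over background was 67.9, 40.2, 40.0, 26.6 and 31.6. At W6 the start-site peak was the only one left in the window, which took the coverage from 3.57% at D0 to 1.67%. Its call of higher at W2 (5.89%) was lost when coverage was divided by the total of each list.

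Itga3, the α chain of the second laminin receptor, did not follow the other 3 integrin genes. Its start-site fold was 8.66, 11.5, 12.6, 11.9 and 5.67, and pileup over background was 24.0, 46.9, 40.0, 28.1 and 17.0. It stood above 28.4% of start-site peaks of the genome at D0 and above 76.3% at W1. Window coverage was 12.9%, 12.4%, 14.8%, 13.5% and 3.98%, and only W12 stood apart. The start site at 95069198, which begins a shorter transcript, had H3K27ac in the first 4 lists (folds of 6.66, 6.16, 12.6 and 8.35) and none at W12.

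An element 9028 bp upstream of Itga3 carried no H3K27ac peak at D0 or W1 and was present at W2, W6 and W12, with folds of 5.61, 4.17 and 7.08. It was the strongest H3K27ac peak of the window at W12. H3K4me1 covered it in all 5 skin lists and in all 4 culture lists. It is printed here as 1 of the 5 elements gained and kept at the 9 genes. The sequence is the genome (GRCm38.p6, RefSeq) over 300 bases centred on the W2 summit, and capitals mark letters of AP1 (TGANTCA) and KLF (GGGNGGG) motifs on either strand, which 9.34% and 33.3% of W2 windows of this size hold.
Itga3 gained element, chr11:95085901-95086200, plus strand: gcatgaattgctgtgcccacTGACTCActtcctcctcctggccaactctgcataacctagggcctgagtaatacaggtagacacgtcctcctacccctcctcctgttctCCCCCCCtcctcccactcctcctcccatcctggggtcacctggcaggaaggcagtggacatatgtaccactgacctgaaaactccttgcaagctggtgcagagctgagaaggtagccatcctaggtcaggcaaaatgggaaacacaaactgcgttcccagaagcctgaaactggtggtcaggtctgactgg
For this and the sequences that follow, the other motifs searched were SOX (ACAAAG and, as the second form, ACAATG), the GATA family (AGATAA), RUNX (TGTGGT) and TEAD (GGAATG), on both strands. A match is a run of letters and not a shown binding site.

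Among the laminin-332 chains, Lamb3 (β3) was called in no week. H3K27ac covered 2.21%, 2.05%, 2.43%, 1.98% and 2.61% of its window with the flanks, but 2.86%, 2.35%, 2.32%, 1.25% and 1.46% of the gene body alone, which was lower by 1.5 times at W6 and W12. Its start-site fold was 16.7, 10.8, 11.9, 10.7 and 6.38, the lowest at W12. An element 17293 bp from the nearest annotated start of Lamb3 was absent at D0 and W1 and present at W2, W6 and W12 with folds of 7.02, 6.56 and 7.08. This gained element lay 1219 bp from the start of Gm15872, so that the window does not settle which gene it belongs to. The far upstream start of Lamb3 (193207725) had H3K27ac in none of the 5 lists. The gained element lay in H3K4me1 in all 5 skin lists and in all 4 culture lists.

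The gained element is printed because it took up H3K27ac under constant H3K4me1. The window is 300 bases around the W2 summit (GRCm38.p6, RefSeq). Capitals mark a TEAD match, found in 15.6% of W2 windows.
Lamb3 gained element, chr1:193189655-193189954, plus strand: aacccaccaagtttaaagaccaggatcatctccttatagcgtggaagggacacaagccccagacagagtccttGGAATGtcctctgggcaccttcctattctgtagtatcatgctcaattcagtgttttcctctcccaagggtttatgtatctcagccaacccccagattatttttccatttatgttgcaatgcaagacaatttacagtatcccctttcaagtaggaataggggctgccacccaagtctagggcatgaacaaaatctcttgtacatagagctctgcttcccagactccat

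Lama3, the α chain, has an upstream start site for the long form of the chain and a downstream one for the short form, and they behaved unalike. The downstream start (12504199) had folds of 30.0, 13.9, 11.2, 12.5 and 13.5 and pileup over background of 87.9, 56.9, 35.3, 29.6 and 43.7. The upstream start (12333819) had a peak at D0 (4.66) and W1 (4.62) and none at W2, W6 or W12, while H3K4me1 covered it in every skin and culture list. H3K27ac therefore remained at the short form's start and was not called within 500 bp of the long form's start from W2 on. At W12 a weak peak (fold of 3.54) lay 509 bp from the long form's start, just beyond that reach. The D0 and W1 peaks at this start were weak as well, with pileups of 6 and 5. The smallest whole pileups in those 2 lists were 4 and 3. Window coverage was 3.90%, 2.95%, 2.18%, 2.22% and 2.89%, lower by 1.5 times at W2 and W6. Of 25 elements, 5 were lost for good, which after Col17a1 was the highest number among the 9 genes.

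The pathway around the 9 was read from 30 other genes of basement membranes and adhesion. In H3K27ac coverage, 2 were lower and 8 higher at W1 (of 27 tested), 2 and 8 at W2 (of 28), 5 and 3 at W6 (of 26), and 15 and 5 at W12 (of 27). Of all genes tested, 19.5%, 15.8%, 12% and 45.6% were lower and 19.1%, 24.5%, 29.2% and 13.5% higher in the same weeks. Npnt, a basement membrane ligand of integrins that is known from the hair follicle, was lower at each week, from 3.26% to between 0.614% and 1.25%. Itgb8, an integrin β chain that binds latent TGFβ and not laminin, was higher: 0.272% at D0 against 4.58%, 6.89%, 7.31% and 5.16%, with H3K4me1 from 9.27% to between 25.8% and 35.7%. It was the one gene of the 30 called higher in every skin list of both marks. By ratio to D0, none of the 9 adhesion genes differed as much as Itgb8 in either direction, but the H3K27ac ratio of Itgb8 starts from a small D0 value. In share of the window, H3K27ac of Col17a1 differed by more, from 32.7% at D0 to 15.9% at W6.

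Col17a1 had the widest H3K27ac coverage of the 9 at D0 and, in number of covered bases, the largest losses from D0 at W1, W6 and W12, with Lama3 level with it at W2. By the ratio of D0 to the later list another gene was ahead each week, namely Itga6 (1.60), Lama3 (1.79), Itgb1 (2.14) and Itga3 (3.25), where Col17a1 had 1.53, 1.21, 2.06 and 2.05. Col17a1 held 24 peaks at D0, a number exceeded at 30 of 21938 genes, and 12 in each of the later lists. These covered 32.7% of its window at D0 and 21.4%, 26.9%, 15.9% and 15.98% afterwards. The D0 value was the highest in the series for the gene, and the ratio of D0 to W12 was 2.05. Of the 24 D0 peaks, 14, 11, 16 and 16 were absent from the 4 later lists. More peaks were absent at 12, 43, 17 and 22 genes of the genome, respectively.

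The gene's start site had a D0 fold of 66.6, rank 22 of 30268 peaks, from a pileup of 99. The fold was then 23.1, 26.7, 18.5 and 16.3, and pileup over background went from 198 to 97.1, 87.0, 44.3 and 53.5. The rank among start-site peaks of the same list also moved. Below it were 99.8% of them at D0, then 98.4% at both W1 and W2, 79.4% by W6 and 94.4% in the W12 list. Genes with such a peak numbered 9580, 9144, 9461, 10407 and 7490, so that the set ranked was not the same in each list. At W6 0.131% of genes had a smaller depth-scaled ratio to D0. A second broad peak 5.07 to 9.71 kb upstream had folds of 46.0, 11.5, 26.0, 13.7 and 15.6. Both were thus lower by W1 and still present at W12.

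**Figure D4:**
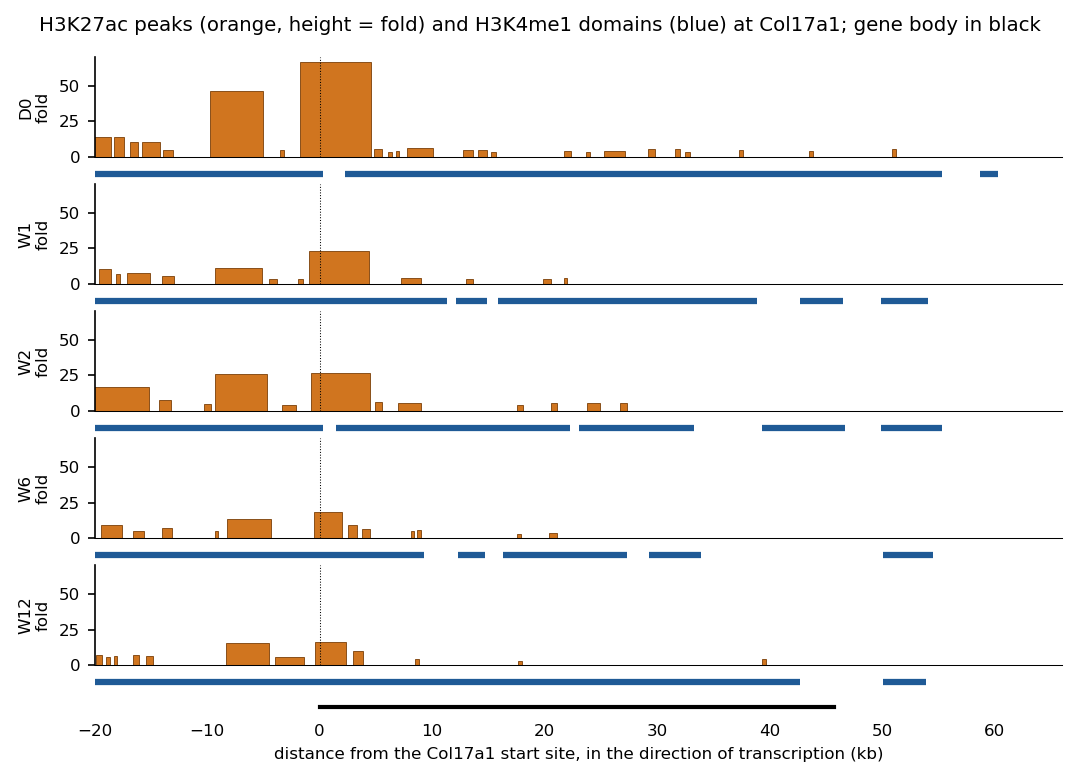
H3K27ac peaks at Col17a1 in the 5 skin lists, drawn to scale by distance from the start site in the direction of transcription (kb), with bar height as fold enrichment (0 to 70 in each row). Blue lines are H3K4me1 domains and the black line is the gene body; the small peaks across the gene body at D0 are mostly absent below, while blue lines remain under them.

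Beyond the start, H3K27ac at D0 was spread over the gene body as a row of small peaks. Of 20 Col17a1 elements, 11 were lost for good, 10 of them inside the gene and 1 in the flank past its end. They lay between 6115 and 50871 bp from the start and had D0 folds of 3.33 to 5.98, which is in the weaker part of the list. H3K4me1 lay over all 11 at D0 and at W12 over 10 of them. Domain coverage in the window was 87.3%, 75.9%, 74.7%, 60.3% and 77.5%. The ratio of D0 to W12 was 2.05 for H3K27ac and 1.13 for H3K4me1, whereas at W6 it was 2.06 and 1.45. Over the gene body alone H3K4me1 went from 95.6% at D0 to 59.7% at W6, a call of lower, and was 93.3% at W12. One intronic element 17527 bp past the start was present only at W2, W6 and W12, with folds of 4.17, 3.25 and 3.27.

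The Col17a1 promoter and the lost elements with the highest D0 folds are shown as the gene's strongest start and as examples of the weak peaks that were lost. The promoter is the RefSeq window (GRCm38.p6) of 250 bases before and 50 after the start, read on the gene's strand, and the elements are 300 bases around the D0 summit. In the promoter, capitals mark, in order, KLF, RUNX, GATA and SOX matches, which 48.1%, 16.8%, 11.2% and 28.6% of 32851 RefSeq promoters hold. In each of the 3 elements they mark 1 SOX match, which 29.1% of D0 windows hold.
Col17a1 promoter, chr19:47691993-47692292, minus strand: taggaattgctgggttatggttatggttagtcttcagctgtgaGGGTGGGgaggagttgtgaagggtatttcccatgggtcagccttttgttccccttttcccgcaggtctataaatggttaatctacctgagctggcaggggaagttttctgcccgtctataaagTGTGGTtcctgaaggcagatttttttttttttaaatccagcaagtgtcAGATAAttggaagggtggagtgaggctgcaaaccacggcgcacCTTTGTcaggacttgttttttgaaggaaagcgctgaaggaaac
Col17a1 lost element, intron, chr19:47660124-47660423, plus strand: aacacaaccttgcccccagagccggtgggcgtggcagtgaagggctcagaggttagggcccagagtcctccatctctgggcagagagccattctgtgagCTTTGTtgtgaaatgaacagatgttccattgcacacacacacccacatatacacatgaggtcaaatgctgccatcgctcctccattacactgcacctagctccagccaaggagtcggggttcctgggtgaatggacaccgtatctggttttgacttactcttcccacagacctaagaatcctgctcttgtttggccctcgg
Col17a1 lost element, over an exon, chr19:47662375-47662674, plus strand: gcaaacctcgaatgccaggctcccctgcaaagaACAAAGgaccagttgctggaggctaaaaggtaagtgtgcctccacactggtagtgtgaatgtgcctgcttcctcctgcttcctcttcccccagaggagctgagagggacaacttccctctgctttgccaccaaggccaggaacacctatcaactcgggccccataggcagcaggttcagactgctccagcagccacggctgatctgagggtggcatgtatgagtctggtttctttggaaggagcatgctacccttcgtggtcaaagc
Col17a1 lost element, flank, chr19:47640882-47641181, plus strand: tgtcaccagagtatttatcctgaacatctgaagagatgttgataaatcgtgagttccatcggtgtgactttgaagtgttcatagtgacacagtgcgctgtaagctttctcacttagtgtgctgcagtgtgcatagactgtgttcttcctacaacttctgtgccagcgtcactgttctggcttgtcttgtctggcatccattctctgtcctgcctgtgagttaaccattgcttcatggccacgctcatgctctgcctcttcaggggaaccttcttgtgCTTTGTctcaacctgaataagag

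Among the plakins, the inner linkers of the junction, neither gene was called lower or higher in H3K27ac coverage before W12. Plec, which binds integrin β4 and keratin, had H3K27ac over 16.4%, 16.3%, 20.2%, 18.5% and 8.63% of its window. Only W12 stood apart. Its strongest start-site fold was 18.0, 10.8, 16.8, 13.1 and 10.6. The gene has many alternative first exons. Of its 12 start sites, the 3 farthest upstream were at 76209165, 76229497 and 76231378 on chromosome 15. None of these had an H3K27ac peak within 500 bp in any of the 5 lists, though H3K4me1 covered them in all 5. An element 879 bp from the start at 76231378, beyond that reach, carried H3K27ac at D0, W1, W2 and W6 but not at W12. Its folds were 5.998, 3.85, 7.02 and 5.37. The starts at 76208253 and 76208653 had peaks at W1 (3.85) and W6 (10.7) only. At W12 the peak was at 3 of the 12 start sites.

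Dst encodes neuronal, muscle and epithelial forms from separate starts. Of its 6 start sites, the most downstream one (34160330), which begins the short epithelial form, carried H3K27ac in all 5 lists, with folds of 11.3, 7.70, 10.5, 8.35 and 9.21. The upstream starts carried none, except those at 34005882 and 34006126 at W12 (fold of 6.38). Dst was the only one of the 9 whose start was not lower by 1.5 times in fold at any week. Its pileup over background was 32.0, 30.1, 32.9, 19.2 and 29.2, lower at W6 only. H3K27ac over the window was 3.04%, 2.26%, 2.65%, 3.04% and 2.67%, and intronic elements 15493, 20280 and 37989 bp from the nearest Dst start were present in all 5 lists. Of the 17 D0 peaks of Dst, 9, 6, 6 and 9 were absent from the 4 later lists, where 37.4%, 38.6%, 37.8% and 53.7% of all peaks were. A cluster of 3 elements 24167 to 26344 bp past the short-form start was present at D0 only (folds of 5.998, 3.998 and 4.28), and H3K4me1 lay over all 3 at W12.

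The promoters of the long and the short form are printed side by side because H3K27ac told them apart in all 5 lists, together with the strongest of the elements lost. The promoters are RefSeq windows (GRCm38.p6), and G and C made up 70.3% of the first and 46% of the second. Capitals mark a SOX and 2 KLF matches in the long-form promoter. None of the motifs searched was in the window of the short form or of the lost element, which says only that these letters are not there.
Dst long-form promoter, chr1:34011345-34011644, plus strand: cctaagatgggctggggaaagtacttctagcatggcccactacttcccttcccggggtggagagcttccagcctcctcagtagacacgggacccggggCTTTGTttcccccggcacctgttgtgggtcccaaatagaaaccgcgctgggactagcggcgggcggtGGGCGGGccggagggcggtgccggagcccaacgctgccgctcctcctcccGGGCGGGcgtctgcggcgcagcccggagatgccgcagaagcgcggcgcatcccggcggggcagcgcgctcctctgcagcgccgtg
Dst short-form promoter, chr1:34160010-34160309, plus strand: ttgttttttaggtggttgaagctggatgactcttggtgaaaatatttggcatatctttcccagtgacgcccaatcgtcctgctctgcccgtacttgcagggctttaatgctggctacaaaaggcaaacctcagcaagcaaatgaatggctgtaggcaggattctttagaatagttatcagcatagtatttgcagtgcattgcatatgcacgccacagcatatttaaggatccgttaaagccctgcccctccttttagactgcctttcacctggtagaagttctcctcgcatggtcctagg
Dst lost element, intron, chr1:34184468-34184767, plus strand: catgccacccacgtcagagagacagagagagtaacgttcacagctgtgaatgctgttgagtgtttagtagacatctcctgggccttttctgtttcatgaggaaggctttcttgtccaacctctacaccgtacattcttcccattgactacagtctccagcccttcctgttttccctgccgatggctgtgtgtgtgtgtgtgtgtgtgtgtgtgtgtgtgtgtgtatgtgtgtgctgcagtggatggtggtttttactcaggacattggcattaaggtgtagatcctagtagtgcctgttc

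In culture, where SOX9 variants were compared, the 9 genes gave 186 H3K4me1 domains without DOX. With WT SOX9 27 of these were absent (14.5% [9.79 to 20.4], all domains 25.1%), with SOX9 without HMG 18 (9.68% [5.84 to 14.9], all 15.6%) and with SOX9 without TA 22 (11.8% [7.56 to 17.4], all 17.5%). The upper end of each interval lay below the share of all domains. Gains were 49 of 202 (24.3% [18.5 to 30.8], all 29.1%), 25 of 186 (13.4% [8.89 to 19.2], all 19.3%) and 56 of 217 (25.8% [20.1 to 32.2], all 25.8%). Coverage was below the list without DOX for 0 of 9 genes with WT SOX9, 4 with SOX9 without HMG and 1 with SOX9 without TA. Of all genes, 42.2%, 47.2% and 40.7% were below it. The lists differed in size: they covered 119.7 Mb without DOX and 133.1, 120.1 and 133.2 Mb with these forms in the same order. The part of list size in the counts was not tested.

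Dst was the one gene called higher, with WT SOX9 only, where 17.7% of all genes were called (9.04% with SOX9 without HMG and 16.3% with SOX9 without TA). None of the 9 was called lower, as were 9.28%, 6.34% and 6.05% of all genes. H3K4me1 covered 9.89% of its window without DOX, 15.7% with WT SOX9, 12.5% with SOX9 without HMG and 12.5% with SOX9 without TA. Of its 53 domains with WT SOX9, 21 were new, and with the 2 truncated forms 9 of 44 and 10 of 44 were. The ratio for WT was close to the threshold, and the call was lost when coverage was divided by the total of each list or when lists of equal length were used. Itgb4 was the next in size, with 19.0%, 26.4%, 21.9% and 20.3%. Col17a1, which had the most lost H3K27ac elements in skin, had 29.0%, 30.5%, 26.7% and 28.7% and was called in none. In skin, by comparison, Dst coverage of H3K4me1 was 23.1% at D0 and 18.1%, 26.8%, 16.5% and 20.1% later, with 8 of 24 domains new at W2.

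**Figure D5:**
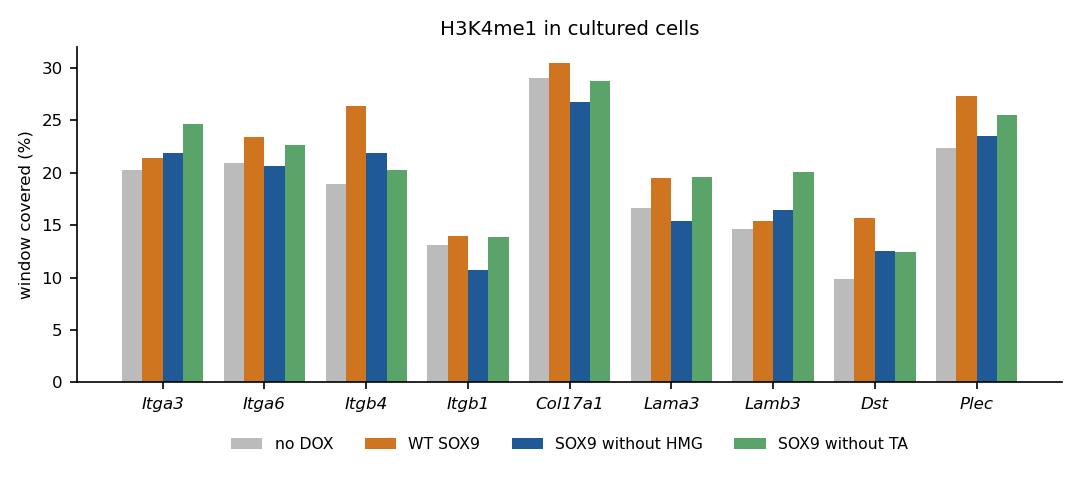
Share of each gene window (in percent) covered by H3K4me1 domains in the 4 culture lists, as bars from 0, grouped by gene. Bars are single pooled lists with no error; the WT SOX9 bar of Dst (15.7%) is the one that exceeds its bar without DOX (9.89%) by 1.5 times.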

How the data were processed

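MINT-ChIP lists of skin and cultured EpdSCs were analysed, with groups and time points from the sample labels. As the study and the submitters' processing notes give it, the authors split reads by barcode, aligned them to mm10 with Bowtie2 2.2.9, removed duplicates with Picard, merged replicates with SAMtools 1.9 and called peaks with MACS2 2.1.1, and broad domains of skin H3K4me1 with epic2. How the culture domains were called is not given in the sources used here. Only the names of the culture lists tie them to conditions.

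The deposited H3K27ac and culture lists hold a score, a fold enrichment (a ratio to local background) and the −log10 of the p-value per interval. The deposited skin H3K4me1 lists hold a p-value per domain. Lists were ranked by score or p-value. Another 14 files of barcodes and total H3 were not used. Where local background is genome-wide, fold equals pileup plus 1 over background plus 1, so that pileup and background were recovered, with 82.3% to 95.9% of peaks within 0.002 of a whole pileup.

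Intervals were joined, covered bases were summed and overlaps of 1 bp were counted in Python 3.11.15 with NumPy 2.4.6, pandas 2.3.3 and SciPy 1.17.1, and figures were drawn with matplotlib 3.10.9. The interval functions were tested on simulated lists. Genes with under 1000 covered bases in both lists were not compared. Start sites are those of the basic set of GENCODE M21. Named elements were the 6 with the highest D0 fold among those lost for good and all 5 gained and kept, and sequences were printed for some of them. Results for 1 other gene and 1 lost element are not reported here. RefSeq promoters were found for 5 of the 9 genes, and Itga6, Itgb4, Lama3 and Plec were not among them. The 9 genes, the 30 other genes, the cell type markers and the motifs were chosen with earlier results of these data known. The alternatives were intervals above the median rank, lists of equal length, scaling by total covered bases, the gene body alone and overlaps of at least 50% of the shorter of both intervals. Intervals above the median rank against the other list in full, leaving out Col17a1 and pileup over background were added after seeing the data.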

Additional observations from a re-analysis of the deposited data

How the results depend on the processing

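Each list pools its replicates, so that no replicate was left out and depth limits what a missing interval means, since a weak peak is more easily missed in a shallower list. No paired analysis was possible because each list pools the replicates of its condition and no test was made. Of 224 values recomputed under another setting, 169 kept within the counting interval or within 1.5 times of the reported count and 55 moved. Whether losses or gains of H3K27ac were larger turned at W12 above the median rank, against the full list and without Col17a1 (47.9% lost, 50% gained), and at W2 against the full list and without Col17a1 (29.6% and 30%), and for H3K4me1 it turned at W12 with lists of equal length (15.9% and 16.1%). All 22 values with an overlap of 50% of the shorter interval and all 22 without Col17a1 were among the 169. With both lists restricted to intervals above the median rank, H3K27ac losses at the 9 genes were 22.2%, 15.6%, 37.8% and 28.9% at the successive weeks and gains 15.4%, 8.57%, 15.2% and 33.3%, the W1 loss of H3K4me1 was 16.7%, and in culture 22% were lost and 22.8% gained for SOX9 without HMG and 31% lost and 32.3% gained for SOX9 without TA. Coverage of H3K27ac was then lower for 1 gene at W1 (Itgb1) and for 0 at W2, and H3K4me1 for 1 at W2 (Itga6) and 1 at W6 (Col17a1), while culture H3K4me1 was higher for 2 with WT SOX9 (Dst and Lamb3) and for 1 with each truncated form (Lamb3), and lower for 1 without TA (Plec). Shares over all intervals or genes were not computed with both lists restricted, so that these values have no background. With the restricted list set against the other list in full, chosen after seeing the data, H3K27ac losses were 6.67%, 4.44%, 13.3% and 22.2% and gains 2.56%, 5.71%, 9.09% and 24.1%, against losses of 14.3%, 14.7%, 13.6% and 29.9% and gains of 18.5%, 17.8%, 16.5% and 31.7% over all peaks. H3K4me1 losses were then 3.70%, 5.56%, 3.70% and 0% (all domains 4.13%, 12.1%, 8.36% and 10.4%) and gains from W2 on 5.08%, 0% and 0% (all 6.4%, 5.52% and 4.42%). Culture losses and gains were 1% and 8% with WT SOX9 (all 9.86% and 18.9%), 0% and 0.990% without HMG (all 4.03% and 6.13%) and 3% and 5.05% without TA (all 5.82% and 11.3%). By construction these shares leave out weak intervals. Over gene bodies alone, H3K27ac was lower for 1 gene at W1 (Col17a1), 2 at W2 (Col17a1 and Lama3), 5 at W6 (Col17a1, Itgb1, Itgb4, Lama3 and Lamb3) and 6 at W12 (Col17a1, Itga3, Itgb1, Lama3, Lamb3 and Plec). H3K4me1 was then lower for 1 at W1 (Itgb4) and 1 at W6 (Col17a1), and culture H3K4me1 was higher for 2 with WT SOX9 (Dst and Itgb4) and 1 without HMG (Itgb4). With lists of equal length the W1 loss of H3K4me1 was 23.8%, the gain without TA 18.6% and the number of genes higher with WT SOX9 0. Scaled to the total bases covered, 0 genes were higher at W2 in H3K27ac and 0 with WT SOX9. By pileup over background 4 start sites in place of 7 were lower at W1. The cause of the moves in called genes was not tested.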
